A study of Mus musculus with 12 samples.

Results

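Ifitm1, Ifitm2, Ifitm3 and Ifitm6, a group of small antiviral membrane proteins encoded side by side on mouse chromosome 7, were followed through sorted myeloid cells of the adult bone marrow. The 4 genes were matched by their mouse symbol to the 56953 genes of the deposited tables, and each was measured in all 12 libraries. Ifitm6, Ifitm3 and Ifitm2 transcripts were 176-fold, 13.3-fold and 10.3-fold lower in macrophages than in monocytes. Ifitm1 followed another order: it was 16.5-fold lower in eYFP+ than in eYFP- macrophages and 5.01-fold lower in Ly6Chi than in Ly6Clo monocytes.

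The cells came from the bone marrow of 8-week-old female C57BL/6J mice, and all groups shared the lineage tracer Rank cre/+;R26.eYFP fl/+ that the study's methods describe. In these mice a Cre recombinase made from the Rank locus removes a stop in front of eYFP, and the study reports no expression of the Cre in adult hematopoietic stem or progenitor cells. Macrophages with high F4/80 were therefore divided by the reporter into eYFP+ cells of embryonic origin and eYFP- cells derived from adult stem cells, and Ly6Chi and Ly6Clo monocytes were sorted beside them, with 3 libraries in each of the 4 groups. The reporter records past Cre activity, so a group is defined by eYFP and not by a direct view of its origin, and the labels do not say whether replicates are separate mice. P-values thus measure only the spread between these samples, which may be technical.

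IFITM proteins lie in cell membranes and hinder enveloped viruses from fusing with them. Ifitm3 and Ifitm2 act mainly in endosomes and lysosomes, where viruses that were taken up are stopped, while Ifitm1 is found more at the cell surface. The genes are induced by type I and type II interferons through STAT and IRF factors, and several are also present in resting immune and stem cells. Ifitm6 is known as a member of the same family with high expression in myeloid cells.

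Depth lay between 26390927 and 48618187 counts per library. Ly6Clo library 2 had counts in 16434 genes, fewer than the 21330 to 27634 genes of the other libraries. The labelled cell types were seen in their markers. Vcam1, an adhesion molecule of bone marrow macrophages, lay at 8965 to 14369 TPM (a level corrected for gene length and scaled to the same sum in each library) in macrophages and at 14.4 to 90.2 TPM in monocytes. Ly6c2, which encodes Ly6C, lay at 5809 to 6963 TPM in Ly6Chi monocytes and at 32.4 to 77.5 TPM in Ly6Clo monocytes. RNA was measured in bulk, so fewer cells that express a gene and less RNA per cell cannot be told apart.

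The start regions of the 4 genes are shown as a description, because the family is induced by interferons through STAT and IRF factors. They are RefSeq sequences on the build GRCm38.p6, from 250 bases before to 30 bases after the annotated start, written 5′ to 3′ along the gene: Ifitm1 at chr7:140967826-140968105 on the plus strand, and on the minus strand Ifitm2 at chr7:140955932-140956211, Ifitm3 at chr7:141010715-141010994 and Ifitm6 at chr7:141016863-141017142. Capitals mark matches to 3 motifs on either strand.
Ifitm1: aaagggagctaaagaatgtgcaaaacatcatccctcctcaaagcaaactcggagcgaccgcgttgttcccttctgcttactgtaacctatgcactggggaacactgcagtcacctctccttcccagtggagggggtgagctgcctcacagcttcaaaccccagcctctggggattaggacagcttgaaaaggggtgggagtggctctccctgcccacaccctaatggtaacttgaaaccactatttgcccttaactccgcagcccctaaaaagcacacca
Ifitm2: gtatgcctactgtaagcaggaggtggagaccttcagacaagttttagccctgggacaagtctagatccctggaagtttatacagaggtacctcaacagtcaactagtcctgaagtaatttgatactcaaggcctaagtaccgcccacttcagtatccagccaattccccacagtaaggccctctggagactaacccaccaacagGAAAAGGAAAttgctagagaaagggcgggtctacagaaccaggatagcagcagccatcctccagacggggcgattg
Ifitm3: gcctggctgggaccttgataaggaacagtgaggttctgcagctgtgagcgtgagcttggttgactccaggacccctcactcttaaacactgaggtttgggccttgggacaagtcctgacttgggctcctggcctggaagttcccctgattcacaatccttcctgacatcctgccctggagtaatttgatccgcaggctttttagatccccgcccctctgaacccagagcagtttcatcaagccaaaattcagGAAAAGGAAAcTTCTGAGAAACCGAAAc
Ifitm6: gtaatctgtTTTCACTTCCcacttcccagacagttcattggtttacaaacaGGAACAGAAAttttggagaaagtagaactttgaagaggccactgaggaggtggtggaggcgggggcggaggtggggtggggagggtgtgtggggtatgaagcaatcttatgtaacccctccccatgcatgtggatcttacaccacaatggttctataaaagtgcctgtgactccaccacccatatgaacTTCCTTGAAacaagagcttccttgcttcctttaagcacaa

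The motifs searched were the interferon-stimulated response element (ISRE: GAAA, any 2 bases, then GAAA), the gamma-activated site bound by STAT dimers (GAS: TTC, any 3 bases, then GAA) and the ETS-IRF composite element (EICE: GGAA, any 2 bases, then GAAA), which can overlap each other. The windows searched also held the bases up to 50 after the start. Ifitm3 held 2 ISRE matches, whose first bases lie 3 and 20 bases after the start, and 1 GAS match at base 14 that overlaps the second of them. Ifitm2 held 1 ISRE match with the same letters, 46 bases before the start. Ifitm6 held no ISRE match but 1 GAS match 10 bases before the start and 2 EICE matches, 199 and 241 bases before it. Ifitm1 held none of these letters, and no motif was shared by Ifitm2, Ifitm3 and Ifitm6. Whether the motifs bear on the levels of these genes was not tested. An ISRE match stands in 3.44% of 32851 promoters of this length, a GAS match in 8.3% and an EICE match in 2.72%, and counted by gene in 3.99%, 9.55% and 3.16% of 27025 genes. Of the 31 genes on a list of interferon-induced antiviral genes that had a promoter sequence, 18 held an ISRE match, 7 a GAS match and 2 an EICE match.

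Ifitm3 (ENSMUSG00000025492), the best studied restriction factor of the family, was the most abundant of the 4 genes in every library. Its level was 629.7, 357 and 389 TPM in the eYFP+ libraries and 707, 548 and 574 TPM in the eYFP- libraries. Ly6Chi monocytes held 8079, 7617 and 8312 TPM, and Ly6Clo monocytes 5946, 4361 and 6479.9 TPM. No macrophage library reached a monocyte library. The group means rose in the order eYFP+ macrophages, eYFP- macrophages, Ly6Clo monocytes and Ly6Chi monocytes. Ranked by TPM, Ifitm3 stood at place 6 or 7 of all genes in Ly6Chi monocytes, at places 13 to 19 in Ly6Clo monocytes and at places 156 to 407 in macrophages. Macrophages had a 13.3-fold lower level than monocytes (log2 fold change -3.74 ± 0.24, SE; DESeq2 adjusted p = 7.34e-52).

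The groups of 1 cell type did not pass the test against each other for Ifitm3, while eYFP- macrophages and Ly6Clo monocytes, the neighbours between the cell types in that order, differed by -3.29 ± 0.34 on the log2 scale (DESeq2 adjusted p = 5.05e-20). The difference between eYFP+ and eYFP- macrophages was -0.36 ± 0.34 on the log2 scale (95% interval -1.03 to 0.31; DESeq2 adjusted p = 0.986), and the groups overlapped. Ly6Chi and Ly6Clo monocytes did not overlap, with a difference of 0.53 ± 0.34 (95% interval -0.14 to 1.19; DESeq2 adjusted p = 0.4).

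Ifitm2 (ENSMUSG00000060591), a late endosomal family member close to Ifitm3 in sequence, was the next most abundant. It lay at 298, 175 and 164 TPM in eYFP+ and at 309, 248 and 268 TPM in eYFP- macrophages. In Ly6Chi monocytes it lay at 1730.1, 1755 and 1910.1 TPM, and in Ly6Clo monocytes at 2438, 3893 and 2908 TPM. Again the macrophage libraries were all below the monocyte libraries, here with Ly6Clo monocytes above Ly6Chi monocytes. The level was 10.3-fold lower in macrophages (log2 fold change -3.37 ± 0.26, SE; DESeq2 adjusted p = 5.62e-36). The monocyte groups did not overlap, but their difference of -0.79 ± 0.37 (Ly6Chi minus Ly6Clo, 95% interval -1.51 to -0.06) did not pass after adjustment (DESeq2 adjusted p = 0.191). The macrophage groups overlapped, with a difference of -0.32 ± 0.37 (95% interval -1.04 to 0.41; DESeq2 adjusted p = 1).

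**Figure D1:**
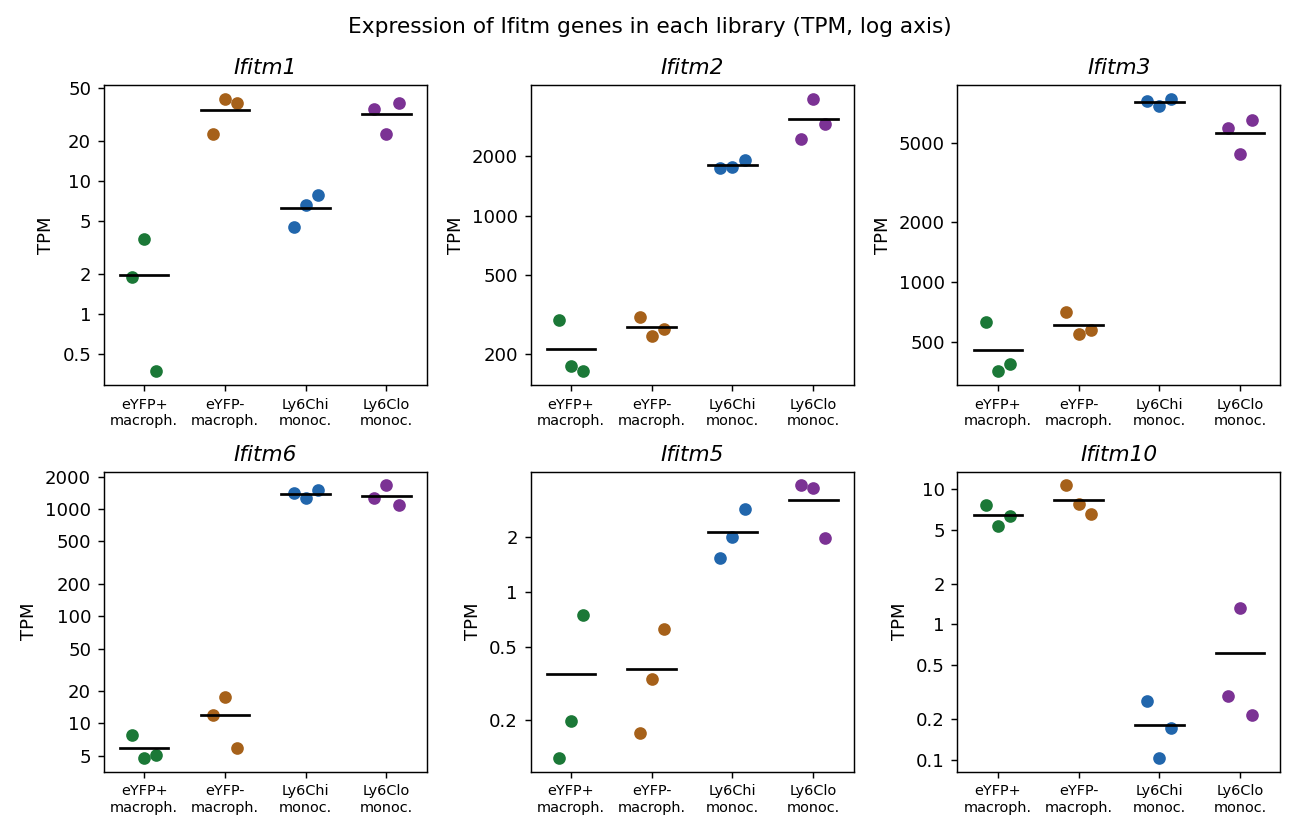
TPM (log axis, range set per gene) of 6 Ifitm genes in the 12 libraries; points are libraries, in the order of their numbers, and lines are group means. Ifitm2, Ifitm3 and Ifitm6 lie low in all macrophage libraries, Ifitm1 is high in eYFP- macrophages and Ly6Clo monocytes, and Ifitm10 is higher in macrophages.

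Ifitm6 (ENSMUSG00000059108) showed the widest gap between the cell types among the 4 genes. Its level was 7.79, 4.74 and 5.05 TPM in eYFP+ and 12.0, 17.8 and 5.85 TPM in eYFP- macrophages. It was 1403, 1267 and 1519 TPM in Ly6Chi and 1263, 1667 and 1084 TPM in Ly6Clo monocytes. The lowest monocyte library, at 1084 TPM, was thus far above the highest macrophage library, at 17.8 TPM. The 176-fold lower level in macrophages corresponds to -7.46 ± 0.30 on the log2 scale (SE; DESeq2 adjusted p = 6.65e-136). Ly6Chi and Ly6Clo monocytes overlapped, with a difference of 0.06 ± 0.41 (95% interval -0.75 to 0.87; DESeq2 adjusted p = 0.967). The macrophage groups overlapped as well, with a difference of -0.94 ± 0.43 (eYFP+ minus eYFP-, 95% interval -1.78 to -0.10; DESeq2 adjusted p = 0.426).

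Genes listed as markers of other cells moved with the gap between the cell types. The summed level of 11 neutrophil genes was 123 to 2624 TPM in macrophages and 6762 to 24018 TPM in monocytes, and 7 of these 11 genes were lower in macrophages, beside 15% of all genes. Mpo, Elane, Prtn3 and Cxcr2 were not called. The monocyte sum mainly follows S100a8 and S100a9, at means of 9470 and 3932 TPM in Ly6Chi and 5069 and 1852 TPM in Ly6Clo monocytes. In eYFP- libraries 1, 2 and 3 the sum was 241, 2624 and 825 TPM, with Ifitm6 at 12.0, 17.8 and 5.85 TPM. In Ly6Clo libraries 1, 2 and 3 it was 15973, 6762 and 8852 TPM, with Ifitm6 at 1263, 1667 and 1084 TPM. In neither group did the libraries stand in the same order for both. A list of 10 monocyte genes summed to 673 to 1159 TPM in macrophages and to 2528 to 8754 TPM in monocytes. Of 8 tested, 6 were lower in macrophages and 1 higher, beside 15% and 20.3% of all genes. The higher one, Treml4, made up most of the macrophage sum (means 777 TPM in eYFP+ and 663 TPM in eYFP- cells). In eYFP+ libraries 1, 2 and 3 the sum was 1159, 673 and 677 TPM, in the order of Ifitm6 (7.79, 4.74 and 5.05 TPM) and Ifitm3 (629.7, 357 and 389 TPM). In the other groups it stood in the order of neither. In the other direction, all 6 erythroid genes, 5 of 7 T and NK cell genes and 3 of 4 megakaryocyte genes tested were higher in macrophages, beside 20.3% of all genes, and the erythroid genes summed to 6939 to 28474 TPM there and to 274 to 1085 TPM in monocytes. The part of these cells in the levels of Ifitm6, Ifitm3 and Ifitm2 was not tested.

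Ifitm1 (ENSMUSG00000025491), the cell-surface member of the family, was the least abundant of the 4 genes in monocytes and in eYFP+ macrophages. The eYFP+ libraries held 1.89, 3.64 and 0.37 TPM, from 35, 64 and 8 counts. The eYFP- libraries held 22.4, 41.3 and 38.0 TPM, from 453, 847 and 769 counts. Ly6Chi monocytes lay at 4.52, 6.52 and 7.76 TPM and Ly6Clo monocytes at 34.4, 22.4 and 38.2 TPM. Every eYFP- library was above every eYFP+ library and every Ly6Clo library above every Ly6Chi library, so that a low and a high group existed within each cell type.

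The 16.5-fold lower level of Ifitm1 in eYFP+ than in eYFP- macrophages corresponds to -4.04 ± 0.60 on the log2 scale (SE; DESeq2 adjusted p = 1.35e-08). Without eYFP+ library 2, which held most of the counts of its group, it was -4.77, and without library 3 it was -3.53. The call was lost with edgeR and a replicate block together (-4.10, adjusted p = 0.1). Ifitm1 was the only 1 of the 4 genes to pass in that comparison, in which 1.88% of the 21567 genes tested were called lower, 0.153% higher and 2.04% in either direction. With 1 library left out, 227 to 529 genes were called there in place of 439, with 227 without eYFP- library 3. The level in Ly6Chi monocytes was 5.01-fold lower than in Ly6Clo monocytes (log2 fold change -2.33 ± 0.59, SE; DESeq2 adjusted p = 0.00213). Here, too, Ifitm1 was the only 1 of the 4 to pass, against 8.62% of all genes called and 4.97% called lower. This call was lost with edgeR (adjusted p = 0.0579).

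By mean TPM, Ifitm1 was ordered eYFP+ macrophages, Ly6Chi monocytes, Ly6Clo monocytes and eYFP- macrophages, while mean normalized counts put Ly6Clo monocytes (574) above eYFP- macrophages (562). The first step was 3.36-fold (eYFP+ minus Ly6Chi log2 fold change -1.75 ± 0.60, DESeq2 adjusted p = 0.0181), and it did not pass without Ly6Chi library 2 (adjusted p = 0.064) or library 3 (adjusted p = 0.0917). Without eYFP+ library 2 it was -2.48, and without eYFP+ library 3 it was -1.23. The high groups, eYFP- macrophages and Ly6Clo monocytes, overlapped and differed by -0.03 ± 0.58 (95% interval -1.17 to 1.11; DESeq2 adjusted p = 0.984). eYFP- macrophages exceeded Ly6Chi monocytes 4.91-fold (log2 fold change 2.30 ± 0.59, DESeq2 adjusted p = 0.000713). Averaged over both groups of a cell type, macrophages minus monocytes gave -0.89 ± 0.42 (DESeq2 adjusted p = 0.0855), and without eYFP+ library 2 this became -1.25 (adjusted p = 0.0136).

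Markers of stem and progenitor cells moved with Ifitm1 in macrophages. Of 7 such genes, 4 were lower in eYFP+ than in eYFP- macrophages, beside 1.88% of all genes: Cd34, a surface sialomucin of progenitors (log2 fold change -4.58 ± 0.67), Flt3 and Kit, receptors for growth factors of progenitors (-4.87 ± 0.83 and -2.69 ± 0.69), and Myb, a transcription factor of progenitors (-3.26 ± 0.94). With edgeR, Flt3, Kit and Myb were not called (adjusted p = 0.0626, 0.202 and 0.377). The 7 genes summed to 2.54 to 10.1 TPM in eYFP+ and 52.8 to 109 TPM in eYFP- macrophages. Their sum was 25.6 to 37.6 TPM in Ly6Chi and 22.8 to 61.0 TPM in Ly6Clo monocytes, which overlap. In libraries 1, 2 and 3 the sum was 52.8, 109 and 101 TPM within eYFP- macrophages and 54.7, 22.8 and 61.0 TPM within Ly6Clo monocytes, in the order of their Ifitm1 levels. It was 2.54, 10.1 and 5.63 TPM within eYFP+ macrophages and 28.5, 25.6 and 37.6 TPM within Ly6Chi monocytes, which is not the order of Ifitm1 in these groups.

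Eosinophil, basophil and mast cell genes summed to 6.07 to 14.8 TPM in eYFP+ and to 444 to 1783 TPM in eYFP- macrophages, with 1 of the 6 genes tested called lower by DESeq2 (1.88% of all genes), 0 by edgeR (6 lower at an unadjusted p under 0.05) and 4 by limma. In Ly6Clo libraries 1, 2 and 3 that sum was 4.62, 0 and 557 TPM, with Ifitm1 at 34.4, 22.4 and 38.2 TPM, in the same order. In eYFP+ macrophages (14.8, 12.8 and 6.07 TPM), eYFP- macrophages (444, 569.6 and 1783 TPM) and Ly6Chi monocytes (1.31, 0.88 and 155 TPM) the libraries did not stand in the order of their Ifitm1 levels. T and NK cell genes summed to 5.46 to 18.1 TPM in eYFP+ and 26.8 to 56.9 TPM in eYFP- macrophages, with 0 of 7 called by DESeq2, edgeR or limma (1 at an unadjusted p under 0.05 with DESeq2 and with edgeR, and 5 with limma, all lower). Of 11 neutrophil genes, 4 were lower in eYFP+ macrophages with DESeq2, beside 1.88% of all genes. With edgeR 1 was lower, beside 63 of all 19189 genes tested. With limma on log2(TPM + 1) 3 were lower, beside 351 of 15808. Erythroid genes summed to 6939 to 11869 TPM against 17503 to 28474 TPM. In eYFP- libraries 1, 2 and 3 the T and NK cell sum was 26.8, 56.9 and 46.9 TPM, in the order of Ifitm1. The neutrophil sum (241, 2624 and 825 TPM) and the megakaryocyte sum (136, 184 and 179 TPM) stood in that order too. The erythroid sum (28474, 17503 and 24925 TPM) did not. In eYFP+ macrophages only the megakaryocyte sum of these 4 (199, 199.9 and 122 TPM) stood in the order of Ifitm1. The part of these cells in the Ifitm1 level of eYFP- macrophages was not tested.

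Some genes listed as markers of other cells also moved with Ifitm1 between the monocyte groups. Bone marrow macrophage genes summed to 320.2 to 407 TPM in Ly6Chi and to 555 to 848 TPM in Ly6Clo monocytes, and 6 of 8 were lower in Ly6Chi cells with DESeq2, beside 4.97% of all genes. T and NK cell genes summed to 0.478 to 3.29 TPM in Ly6Chi and to 10.2 to 16.1 TPM in Ly6Clo monocytes, with 1 of 7 called lower by DESeq2, and megakaryocyte genes to 2.13 to 3.97 TPM and 58.2 to 75.0 TPM, with 1 of 4 called lower. Most of the Ly6Clo sums was Gzma (mean 0.733 TPM in Ly6Chi and 11.0 TPM in Ly6Clo) and Pf4 (1.41 and 65.9 TPM). Pf4 was also at 170.2 TPM in eYFP+ and 139.8 TPM in eYFP- macrophages. By their means, Cd3e, Trbc2, Gp9 and Ppbp were higher in Ly6Chi cells, and Ncr1, Klrb1c, Trbc1, Cd3d and Itga2b were lower. The part of these cells in the Ifitm1 level of Ly6Clo monocytes was not tested.

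When eYFP+ library 1 and Ly6Clo library 2 were left out together, a choice made after seeing the data, all 4 genes passed as lower in eYFP+ than in eYFP- macrophages. The log2 fold change was then -0.76 for Ifitm2 (DESeq2 adjusted p = 0.0215), -0.77 for Ifitm3 (adjusted p = 0.0146) and -1.31 for Ifitm6 (adjusted p = 0.00801). eYFP+ library 1 held the highest Ifitm2, Ifitm3 and Ifitm6 levels of its group. It also held the highest sums of monocyte genes (1159 against 673 and 677 TPM) and neutrophil genes (212 against 139 and 123 TPM). Its sums of stem and progenitor genes (2.54 TPM) and of T and NK cell genes (5.46 TPM) were the lowest of the group. The part of such cells in these levels was not tested. Under this choice 989 genes were called in the comparison, against 439 with all libraries. With only eYFP+ library 1 left out the differences were nearly as large (-0.75, -0.76 and -1.30), but none of these 3 genes passed (DESeq2 adjusted p = 0.408, 0.209 and 0.125), so the calls rest on leaving out both libraries.

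Between macrophages and monocytes, 3 of the 4 genes were called, all lower, beside 35.4% of the 22385 genes tested that were called, 15% as lower and 20.3% as higher. Group by group, Ifitm2, Ifitm3 and Ifitm6 were lower in each macrophage group than in each monocyte group. In eYFP+ macrophages minus Ly6Chi monocytes, Ifitm2 was at -3.13, Ifitm3 at -4.18 and Ifitm6 at -7.96 on the log2 scale, and all 4 genes were called (Ifitm1 not with edgeR, adjusted p = 0.052), beside 24.5% of all genes. In eYFP+ macrophages minus Ly6Clo monocytes they were at -3.92, -3.65 and -7.90, and again all 4 were called, beside 28% of all genes. In eYFP- macrophages minus Ly6Chi monocytes they were at -2.82, -3.82 and -7.02, and with Ifitm1 higher all 4 were called, beside 27.4%. In eYFP- macrophages minus Ly6Clo monocytes they were at -3.60, -3.29 and -6.96, and these 3 were called, beside 26.3%. The 4 comparisons share their libraries pairwise.

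**Figure D2:**
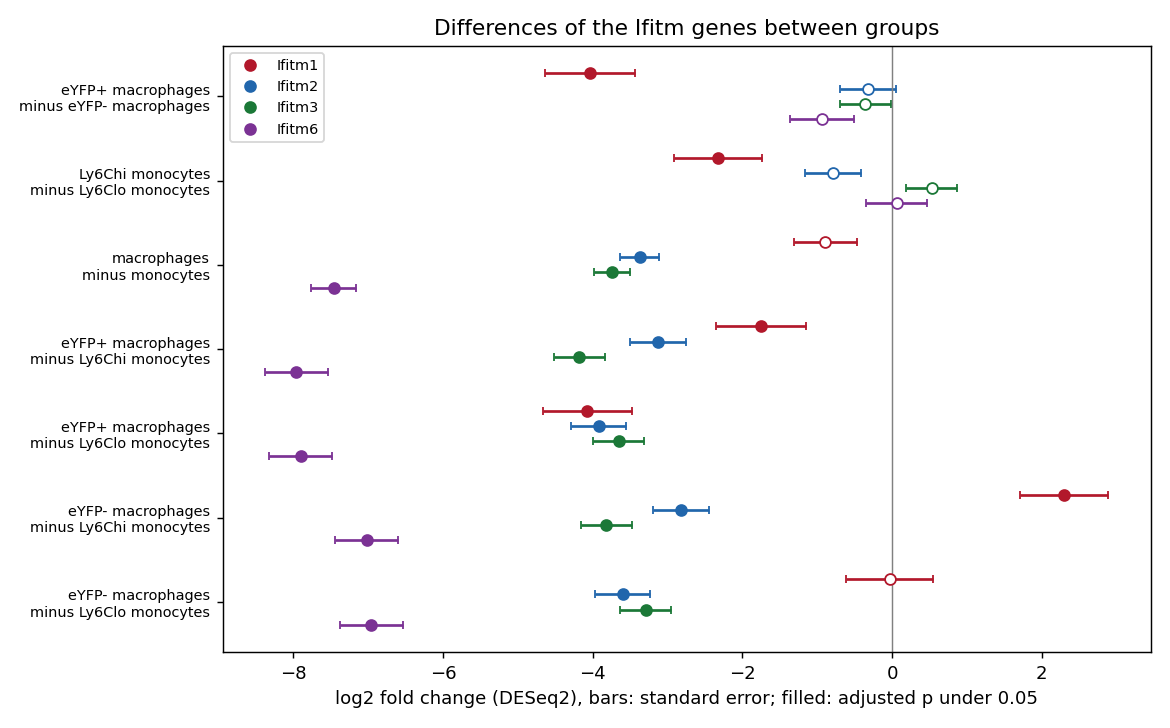
DESeq2 log2 fold changes (x axis) of the 4 genes in 7 comparisons (y axis), with standard errors as bars and filled points for an adjusted p under 0.05. Ifitm2, Ifitm3 and Ifitm6 lie between -7.96 and -2.82 wherever a macrophage group is set against a monocyte group, while Ifitm1 runs from -4.07 to 2.30.

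Summed over the 4 genes, Ifitm transcripts made up 1.06% to 1.17% of all TPM in Ly6Chi and 0.968% to 1.05% in Ly6Clo monocytes. In macrophages they made up 0.0541% to 0.0937% in eYFP+ and 0.0855% to 0.105% in eYFP- libraries. Ifitm3 took the largest share of this pool in each library, on average 67.6% ± 1.88 (SD, n = 3) in eYFP+ macrophages, 65.4% ± 1.70 in eYFP- macrophages, 71.4% ± 0.644 in Ly6Chi monocytes and 55.6% ± 10.2 in Ly6Clo monocytes. The large SD of the last group came from library 2, at 43.9% against 61.4% and 61.7%.

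The ratio of Ifitm3 to Ifitm2 TPM set Ly6Chi monocytes apart from the other groups. It was 4.67, 4.34 and 4.35 in Ly6Chi libraries, and 2.44, 1.12 and 2.23 in Ly6Clo libraries. In macrophages it was 2.11, 2.04 and 2.38 for eYFP+ and 2.29, 2.21 and 2.14 for eYFP-. The macrophage groups overlapped, and every Ly6Chi library was above all others. Ifitm2 accordingly took 16.1% ± 0.558 of the pool in Ly6Chi monocytes, and 31.2% ± 1.63, 29.6% ± 0.640 and 30.7% ± 7.45 in eYFP+ macrophages, eYFP- macrophages and Ly6Clo monocytes. The values of Ly6Clo library 2, whose ratio was lowest, pull Ifitm2 up and Ifitm3 down in that group.

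Ifitm6 took 12.4% ± 0.514 of the pool in Ly6Chi and 13.4% ± 3.24 in Ly6Clo monocytes, against 0.870% ± 0.0371 in eYFP+ and 1.29% ± 0.725 in eYFP- macrophages. Ifitm1 took 3.75% ± 1.43 in eYFP- macrophages. In the other groups it took 0.314% ± 0.319 (eYFP+), 0.0559% ± 0.0137 (Ly6Chi) and 0.315% ± 0.0774 (Ly6Clo), so that a like Ifitm1 level in eYFP- macrophages and Ly6Clo monocytes was a different share of a smaller and a larger pool. Without library 2 the mean eYFP+ share was 0.134%.

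**Figure D3:**
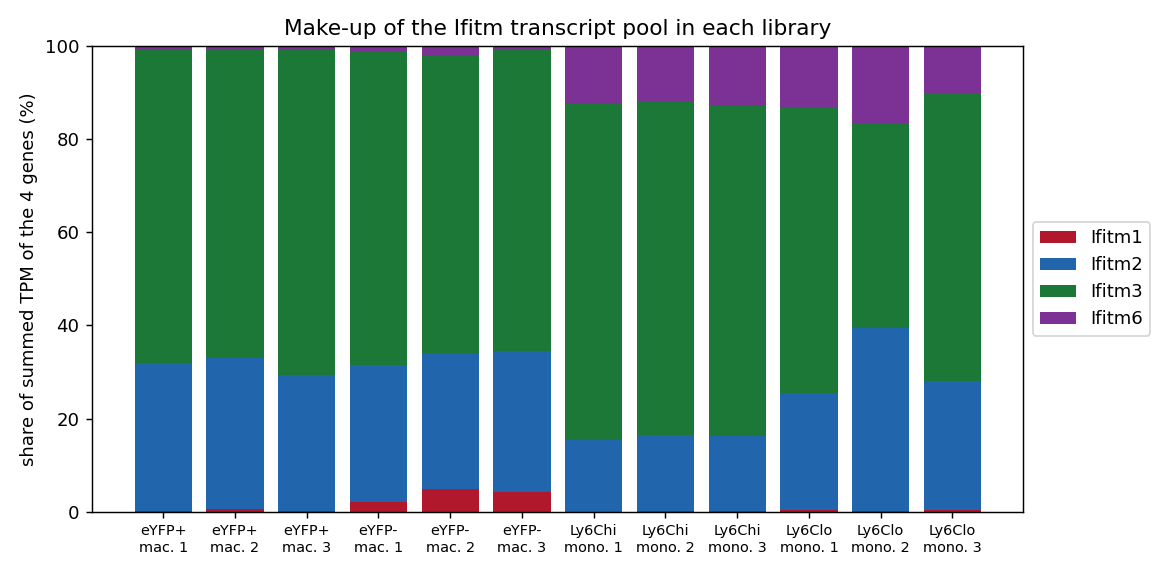
Share of each gene (y axis, percent) in the summed TPM of the 4 Ifitm genes, as 1 stacked bar per library (x axis; mac. for macrophages, mono. for monocytes, with the library number). Ifitm3 is the largest part in each bar, Ifitm6 is visible mainly in monocytes, and Ifitm1 reaches 2.13% to 4.83% in eYFP- macrophages.

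Sequence shared with other genes bears mainly on the Ifitm2 level, because the authors counted only read pairs that aligned unambiguously. In the GENCODE M21 transcripts, 48.5% of the 50-base stretches of Ifitm2 occur in another gene, against 10% for Ifitm3, 5.02% for Ifitm1 and 0 for Ifitm6. Of the 294 such stretches of Ifitm2, 219 lie in Gm45717, 90 in Gm11951, 75 in Gm8865, 47 in Gm45308, 34 in Gm2840, 20 in Ifitm3 and 17 in Gm45432, and a stretch can lie in several. Gm45717 is a gene model on the same strand that shares exons with Ifitm2 and Ifitm5 and had 0 to 5 counts per library. How the authors counted pairs within shared exons is not given in the sources used here, so the Ifitm2 level is uncertain against that of the other genes. The coding sequences of Ifitm2 and Ifitm3 were identical at 75.9% of aligned bases, those of Ifitm1 and Ifitm3 at 63.5%, and those of Ifitm6 with the others at 57.4% to 58.0%. The longest stretch that Ifitm2 and Ifitm3 share in their coding sequence has 69 bases and is shown because only pairs that lie wholly within such a stretch cannot be told apart.
Ifitm2 and Ifitm3: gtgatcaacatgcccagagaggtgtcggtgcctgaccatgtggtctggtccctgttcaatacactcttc

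Of the other Ifitm genes, Ifitm5 moved in the same direction as Ifitm2, Ifitm3 and Ifitm6 between the cell types and Ifitm10 in the opposite one. Ifitm10, a distant member of the family, lay at 5.27 to 10.6 TPM in macrophages and at 0.103 to 1.33 TPM in monocytes (log2 fold change 4.35 ± 0.47, SE; DESeq2 adjusted p = 3.23e-19). Ifitm5, known from osteoblasts, lay at 0.124 to 0.746 TPM in macrophages and 1.54 to 3.82 TPM in monocytes (log2 fold change -2.93 ± 0.52; DESeq2 adjusted p = 2.11e-07). Its exons overlap Gm45717 as well. Ifitm7 had at most 15 counts in a library and 0 counts in 7 of the 12 libraries. With DESeq2, edgeR and limma, 0 of these 3 genes passed between eYFP+ and eYFP- macrophages (0 at an unadjusted p under 0.05) or between Ly6Chi and Ly6Clo monocytes (1 lower at an unadjusted p under 0.05 with DESeq2 and with edgeR, 0 with limma).

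Interferon-induced antiviral genes, of which 40 were listed, were mostly higher in Ly6Chi monocytes, where the Ifitm genes had no common direction. With Ly6Chi minus Ly6Clo monocytes, 25 of the 39 tested were called higher and 0 lower with DESeq2, where 3.66% of all genes were called higher. At an unadjusted p under 0.05, 31 were higher and 0 lower, and edgeR called 21 and limma 27, all higher. On the log2 scale their median was 1.33, against 0.02 for all genes. The clearest were Mx2 and Mx1, interferon-induced GTPases (log2 fold changes 2.29 ± 0.33 and 1.69 ± 0.30), and Slfn5, a Schlafen family gene (2.97 ± 0.49), with DESeq2 adjusted p-values of 9.99e-10, 1.49e-06 and 1.2e-07. The 4 Ifitm genes lay at -2.33 (Ifitm1), -0.79 (Ifitm2), 0.53 (Ifitm3) and 0.06 (Ifitm6) there, with 0 called higher by DESeq2, edgeR or limma (0 at an unadjusted p under 0.05). With 1 library left out, 18 to 30 of the antiviral genes were called.

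Between eYFP+ and eYFP- macrophages, 1 of 39 antiviral genes was called, beside 2.04% of all genes: Isg20, an RNA exonuclease, which was 3.53-fold lower in eYFP+ cells (log2 fold change -1.82 ± 0.34; DESeq2 adjusted p = 2.29e-05; with a correction for GC content 0.214). The median of the list was 0.19 against 0.05 for all genes, while Ifitm1 stood at -4.04. Between macrophages and monocytes, 16 of 40 were called, 12 lower and 4 higher, beside 35.4% of all genes (15% lower and 20.3% higher), with a median of -0.21 against 0.08 for all genes. The clearest were Samhd1, a nucleotide hydrolase that limits retroviruses (-2.26 ± 0.14, DESeq2 adjusted p = 6.82e-58), Ifit1bl1, an IFIT family gene (-4.29 ± 0.43, adjusted p = 4.89e-22), and Zbp1, a sensor of nucleic acids (-2.21 ± 0.22, adjusted p = 9.18e-22). Ifitm3 and Ifitm2, at -3.74 and -3.37, lay below all of the antiviral list but Ifit1bl1, and Ifitm6 at -7.46 lay below the whole list.

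**Figure D4:**
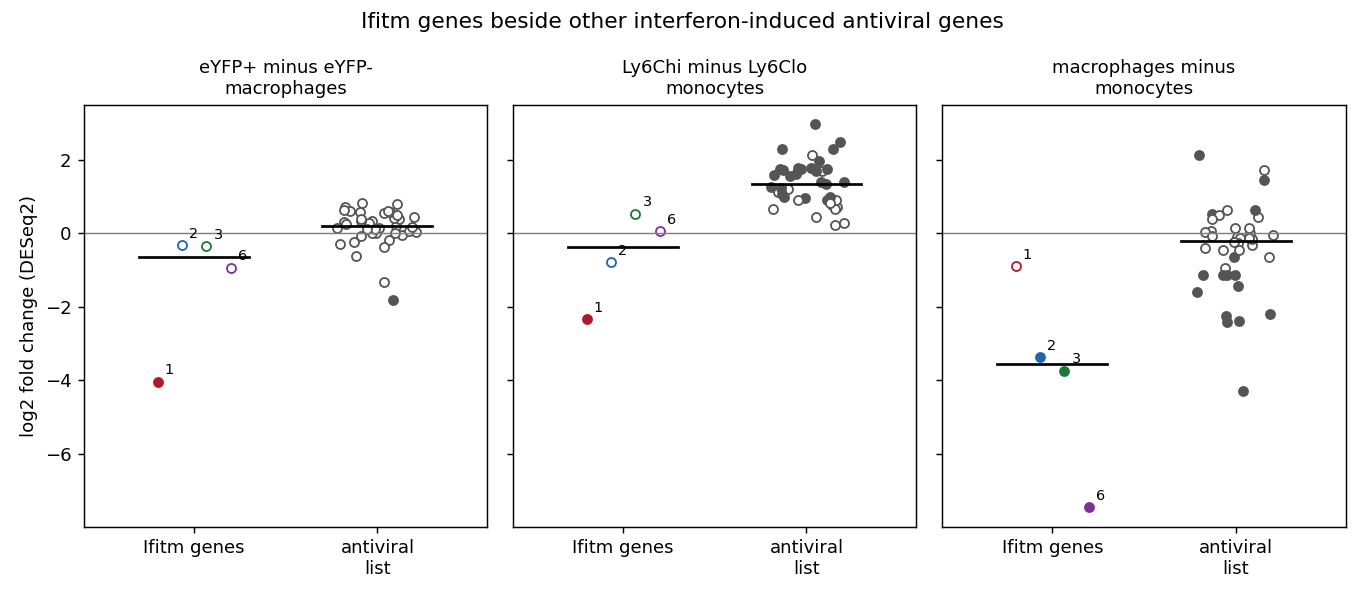
DESeq2 log2 fold changes (y axis) of the 4 Ifitm genes (digits give the gene) and of the listed antiviral genes tested, in 3 comparisons; filled points have an adjusted p under 0.05 and lines are medians. In monocytes the antiviral genes lie above zero with a median of 1.33 and the Ifitm genes have a median of -0.37; between cell types the Ifitm median is -3.55 and that of the list -0.21.

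Receptors and signalling genes of the interferon pathway, 18 in all, were called in no case between the macrophage groups with DESeq2, edgeR or limma, and 1 was lower at an unadjusted p under 0.05 with DESeq2 and with edgeR (0 with limma). Between the monocyte groups 2 of the 18 were higher in Ly6Chi cells, beside 3.66% of all genes: Irf7, the main amplifier of type I interferon (log2 fold change 1.73 ± 0.38; DESeq2 adjusted p = 0.000189), and Stat2, a subunit of the complex that binds ISRE (1.89 ± 0.52; adjusted p = 0.00569; with edgeR 0.0582). Between macrophages and monocytes 12 of the 18 were called, 9 lower and 3 higher, beside 15% and 20.3% of all genes. The clearest were Stat3, a transcription factor of cytokine receptors (-2.11 ± 0.31; DESeq2 adjusted p = 1.76e-10), Socs3, its feedback inhibitor (-2.86 ± 0.50; adjusted p = 1.41e-07), and Irf2, a factor that can antagonise Irf1 (-1.21 ± 0.26; adjusted p = 2.96e-05).

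Proteins that modify IFITM proteins or bind them were also listed, 10 in all. Nedd4, the ubiquitin ligase that marks IFITM3 for degradation, was the only 1 of the 10 called between the macrophage groups, beside 2.04% of all genes. It was lower in eYFP+ cells (log2 fold change -2.72 ± 0.60; DESeq2 adjusted p = 0.00103), a call lost with edgeR (adjusted p = 0.11) and with limma on log2(TPM + 1) (adjusted p = 0.0589). Between the monocyte groups 3 of the 10 were called, all lower in Ly6Chi cells, beside 4.97% of all genes: the tetraspanins Cd9 (-3.21 ± 0.34) and Cd81 (-4.03 ± 0.57), and Fyn, a kinase that phosphorylates IFITM3 (-4.00 ± 0.43), with DESeq2 adjusted p-values of 6.56e-19, 1.73e-10 and 1.31e-17. Between cell types 6 of the 10 were called, 4 higher and 2 lower in macrophages, beside 20.3% and 15% of all genes. Cd81, a partner of IFITM1 at the cell surface, had 4.83 ± 0.40 there, Fyn 1.79 ± 0.30 and Cd9 -1.35 ± 0.24 (DESeq2 adjusted p = 5.43e-32, 4.24e-08 and 1.46e-07). Fyn passed only against Ly6Chi monocytes, where its mean was 1.11 TPM against 16.8 TPM in eYFP+ macrophages, 15.9 TPM in eYFP- macrophages and 17.5 TPM in Ly6Clo monocytes (DESeq2 adjusted p against Ly6Clo = 0.827 and 0.709). Cd9 passed only against Ly6Clo monocytes, at a mean of 239 TPM against 27.7, 38.6 and 25.8 TPM in eYFP+ macrophages, eYFP- macrophages and Ly6Chi monocytes (DESeq2 adjusted p against Ly6Chi = 0.955 and 0.337).

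Genes beside the Ifitm cluster on chromosome 7 were compared to see whether the whole region moved. Between macrophages and monocytes 4 of 13 neighbours tested were called, 3 lower and 1 higher, beside 35.4% of all genes. Sigirr, an inhibitory receptor of the interleukin-1 family, was at -2.75 ± 0.31 on the log2 scale and Pkp3, a desmosome protein, at -3.39 ± 0.43 (DESeq2 adjusted p = 4.89e-18 and 2.79e-14). Both lie on the side of Ifitm6 in the gene order of the annotation. Ptdss2, a phosphatidylserine synthase, was higher in macrophages (1.76 ± 0.37; DESeq2 adjusted p = 1.35e-05), and the fourth was Rnh1, lower at -0.72. Between the macrophage groups 1 of 12 was called, beside 2.04% of all genes: Sigirr at -2.07 ± 0.44 (DESeq2 adjusted p = 0.00042), a call lost with edgeR (adjusted p = 0.0592), with limma on log2(TPM + 0.1) (0.0638) or without a filter (0.119), and with a correction for GC content (0.0866). Between the monocyte groups 2 of 12 were called, beside 8.62% of all genes: Irf7 and B4galnt4, and B4galnt4 is listed at a mean of 0.392 TPM in Ly6Chi and at 0 in Ly6Clo monocytes. The B4galnt4 call was lost with edgeR (adjusted p = 0.0746) and with limma without a filter (0.21). Of 7 genes with the same CD225 domain elsewhere in the genome, 3 were tested. Between the macrophage groups 0 of them were called with DESeq2, edgeR or limma, with 0 at an unadjusted p under 0.05, and 1, Syndig1l, was higher in macrophages than in monocytes (20.3% of all genes were). All 3 (Prrt1, Syndig1l and Tmem91) were lower in Ly6Chi than in Ly6Clo monocytes with DESeq2, beside 4.97% of all genes, at means of at most 7.85 TPM, while edgeR called 1 and limma 0 of them.

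**Figure D5:**
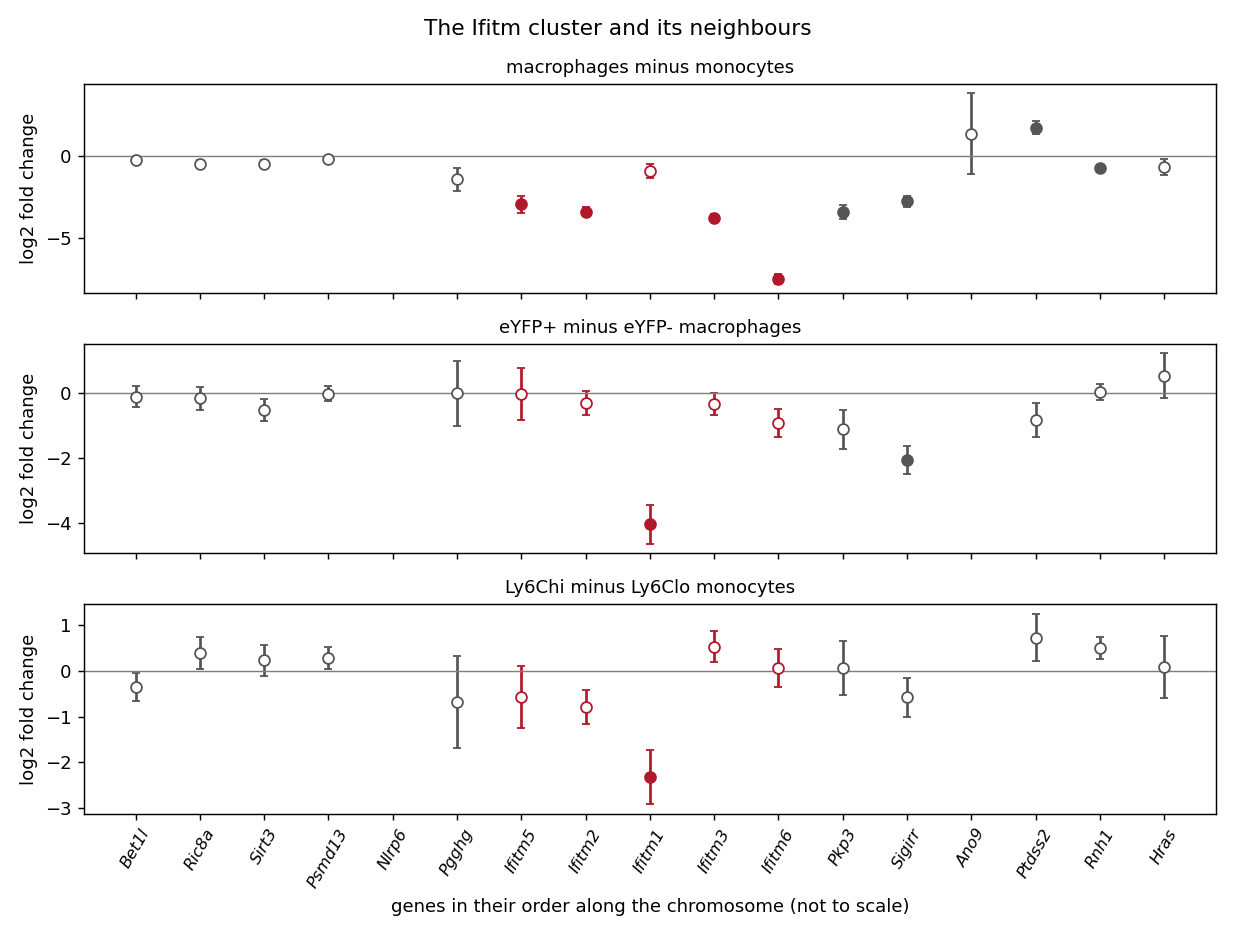
DESeq2 log2 fold changes with standard errors (y axis) of the Ifitm genes (red) and their neighbours (grey) in the gene order of the annotation (x axis, not to scale), in 3 comparisons; filled points have an adjusted p under 0.05, and genes without a point were not tested. B4galnt4, near 0 TPM in several groups, and Irf7 are not drawn. Ifitm2, Ifitm3 and Ifitm6 stand low between cell types and Ifitm1 stands low in both other panels.

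The likeness of each gene to all others was described by Pearson's r over the 12 libraries, on the deposited variance-stabilised values of 10953 genes. These values share the split of the 2 cell types, so a high r is a description only. Ifitm2, Ifitm3 and Ifitm6 had an r of 0.958 to 0.984 with each other, and Ifitm1 one of 0.244 to 0.36 with them. The genes most like Ifitm6 were Ptpre (0.998), Sirpb1c (0.997) and Ccdc125 (0.996). Most like Ifitm3 were Sirpb1c (0.992), Arl5c (0.992) and Sirpb1b (0.991), and most like Ifitm2 were Nupr1 (0.996), Irak3 (0.991) and Cd300lb (0.99). The closest to Ifitm1 were Impdh2-ps (0.901), Slc2a3 (0.881) and Cdca7l (0.873).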

How the data were processed

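Sorted bone marrow myeloid cells were profiled by RNA sequencing of amplified full-length cDNA, in 4 groups of 3 libraries. Per the study's methods and the submitters' processing notes, the authors converted reads with bcl2fastq 2.20.0.422, trimmed and error-corrected them, removed ribosomal RNA, and aligned them to GRCm39 with segemehl. The authors deposited counts (featureCounts totals per gene of unambiguously aligned read pairs, strand not stated), TPM values (counts divided by gene length and scaled to the same sum per library) and variance-stabilised values close to a log2 scale. Amplification without described molecular identifiers means that reads are not independent molecules; no interval for counting error was used.

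Counts were tested here with DESeq2 (1.42.0; R 4.3.3), the tool and threshold of the study, whose design formula is not given in the sources used here: 1 fit over all 12 libraries, group as the only factor, median-of-ratios scaling, Wald contrasts, Benjamini-Hochberg adjusted p under 0.05 over all genes. Log2 fold changes are unshrunken, and intervals are 95% Wald intervals. Alternatives used edgeR 4.0.16 and limma 3.58.1. Symbols (91.4% of identifiers) and transcripts came from GENCODE M21, which is of another build than the counts, so the only coordinates given are those of the RefSeq start regions, on GRCm38.p6. The scripts were tested on simulated data.

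The Ifitm genes and all lists were chosen with earlier results of these data known. The 4 Ifitm genes and Ifitm5, Ifitm7 and Ifitm10 are named whatever their values, and of each list at most the 3 genes with the lowest adjusted p per comparison; of counts of 5 or fewer, Rnh1 and Myb were named after their values were seen. Marker lists are described by their sums. Members that made up most of a sum, went against it or were not called were named after their values were seen. Likeness was ranked among named genes with a mean of at least 50 normalized counts.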

Additional observations from a re-analysis of the deposited data

How the results depend on the processing

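The Ifitm results were recomputed with edgeR, limma on log2(TPM + 1) or log2(TPM + 0.1), TMM scaling, at least 10 counts in at least 3 libraries, DESeq2 without its filter or its Cook's cutoff, a replicate block, fits of just the libraries compared, and each library left out. Leaving out 2 libraries together, a correction for GC content and the block with the count minimum were added after seeing the data. Of 28 differences (4 genes, 7 comparisons), 20 were called. Of their 415 recomputed values, 406 stayed called in the same direction, 9 lost the call and 0 reversed; 17 of the 20 never lost it. The cause of the changes was not tested. The 9 concern Ifitm1: eYFP+ minus eYFP- with edgeR and the replicate block (-4.1, adjusted p = 0.1, so 0 genes called); Ly6Chi minus Ly6Clo with edgeR (-2.29), edgeR with the block (-2.33) and limma on log2(TPM + 0.1) (-2.32), each leaving 0 called; and eYFP+ minus Ly6Chi with edgeR (adjusted p = 0.052), edgeR with the block (0.0896), limma without a filter (0.0703) and without Ly6Chi library 2 or 3. With eYFP+ library 1 and Ly6Clo library 2 left out together, 4 in place of 1 were called between macrophage groups, and 1 with any single library left out. Small uncalled differences changed sign: Ifitm2 in eYFP+ minus eYFP- with a GC correction (0.01), Ifitm6 in Ly6Chi minus Ly6Clo with it (-0.16) (without 1 library, -0.08 to 0.30), and Ifitm1 in eYFP- minus Ly6Clo with limma (0.08 to 0.09; without 1 library, -0.25 to 0.16).

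Same-numbered macrophage libraries deviated together weakly (r = 0.198, 0.035 and 0.0658 over 2000 genes), which cannot show that they were unpaired. In the sample descriptions the libraries of each replicate number carry consecutive numbers. The labels do not say whether these came from the same mice, and the numbers were not taken as pairs. With the replicate block in DESeq2, 1155 genes (471 higher, 684 lower) were called between the macrophage groups instead of 439 (33 and 406), and with the block and the count minimum 444 (27 and 417); every call of an Ifitm gene was unchanged. Over all genes, edgeR called 64 there (24 with the block), limma 151 to 365, and the fit of only these libraries 686. For Ly6Chi minus Ly6Clo, edgeR called 829 (537 with the block), limma 1040 to 1205 and the fit of only these libraries 1191, against 1860. Between macrophages and monocytes the GC correction gave 3264 higher and 4688 lower genes, against 4551 and 3364. Under this correction, and without Ly6Clo library 2, Ifitm1 was called there (-1.23 and -1.02).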
